A study of Mus musculus with 6 samples.

Results

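Genes of ribosome assembly and other classical targets of the transcription factor MYC were followed in pre-B leukemia cells that received the adaptor Blnk. The set was a named list of 41 genes made up of nucleolar, ribosome-assembly and other known MYC target genes, without Myc itself, cyclins or glycolysis genes. Each gene was read through its brightest probe that names no other gene, and 40 of the 41 could be read so, out of 19938 genes measured in the same way. Ppan was the exception, because its probe also carries a second symbol. None of the 40 genes passed the test between the groups in the main fit, and up to 4 passed in an alternative analysis. Myc fell by 26.2% (limma adjusted p = 0.0161) and passed in 8 of 14 alternatives. No difference between Myc and a member was tested.

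Blnk, also called Slp65, is the adaptor that carries the signal of the pre-B cell receptor to the enzymes behind it. The cells were mouse pre-B cells labelled as Blnk knockout and transformed by BCR-ABL1, a fusion kinase that drives Philadelphia chromosome-positive acute lymphoblastic leukemia. They came from Balb/c mice 4 weeks of age. In 3 samples the cells were transduced with Blnk, and in the other 3 with the GFP retrovirus pMIG, which served as the control. All 6 samples therefore share the knockout genotype, BCR-ABL1 and sorting for GFP, which was done at day 5 after transduction. The labels leave unsaid whether the 3 samples of a group are separate cultures or animals. The p-values therefore reflect sample-to-sample spread that may be purely technical.

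MYC binds DNA as a dimer with MAX, often at the letters CACGTG, known as the E-box. Its best known targets include the genes that make ribosomes: those for RNA polymerase I, for the small nucleolar particles that modify ribosomal RNA, and for the factors that fold and trim the precursors of both subunits in the nucleolus. In B-lineage cells MYC rises with growth and division, and in BCR-ABL1 leukemia it lies downstream of the kinase.

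The labels were checked first. The Blnk transcript had intensities of 2714, 3342 and 3022 in the Blnk samples, against 972, 926 and 1013 in the pMIG samples (log2 difference 1.64, SE 0.0914, limma adjusted p = 0.000101). All 3 Blnk samples thus lay above all 3 pMIG samples. The part of Blnk that its probe covers is not given, and the signal in pMIG samples is no check of the knockout. All 9 pre-B cell markers measured lay above the median gene, with summed intensities of 41126 to 42005 in Blnk samples and 39427 to 40814 in pMIG samples. Among them Vpreb1 fell (log2 difference -0.68, limma adjusted p = 0.00976) and passed in 12 of 14 alternative analyses, the exceptions being those without pMIG replicate 2 or pMIG replicate 3. Cd79a differed by 0.31 (limma adjusted p = 0.0468) and passed in 5 of 14, with adjusted p-values of 0.0678 to 0.1515 when 1 array was left out. Of the markers of other cell types, 2 of 8 for T and NK cells, 0 of 9 myeloid, 0 of 3 erythroid and 3 of 6 stromal and endothelial genes lay above the median gene. T and NK cell markers (8 measured) summed to 391 to 491 in Blnk samples and 379 to 457 in pMIG samples, and myeloid markers (9 measured) to 276 to 295 in Blnk samples and 267 to 286 in pMIG samples. Erythroid markers (3 measured) summed to 147 to 174 in Blnk samples and 146 to 157 in pMIG samples. Stromal and endothelial markers (6 measured) summed to 1074 to 1181 in Blnk samples and 836 to 891 in pMIG samples, a gap carried by Pecam1, which B-lineage cells also express. Over all genes, 500 were higher and 220 lower with Blnk past an adjusted p of 0.05, and with quantile normalization repeated the split was 411 higher and 327 lower. With arrays centred on their medians it was 417 higher and 291 lower.

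The E-box is shown for the members because it is the sequence through which MYC and MAX bind. Promoter windows from RefSeq (GRCm38.p6), running from 250 bases before a gene's start to 50 after it, were found for 34 of the 41 genes. The 6 letters CACGTG, which read the same on both strands, stood in 10 of the 34 windows, or 29.4%, against 8.09% of the windows of all 27025 gene symbols and 9.5% of those of the 15614 measured genes with a window. The 10 genes were Mybbp1a, Wdr43, Utp20, Tsr1, Pes1, Nop2, Nle1, Eif4a1, Hspd1 and Apex1. For 6 of them, those with the smallest unadjusted p between the groups, 30 bases around the E-box follow in the direction of transcription, with CACGTG in capitals.
Nop2 (chr6:125131811-125131840, plus strand): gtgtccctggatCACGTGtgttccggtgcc
Nle1 (chr11:82908355-82908384, minus strand): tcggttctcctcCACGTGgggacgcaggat
Mybbp1a (chr11:72441347-72441376, plus strand): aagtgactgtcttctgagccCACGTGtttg
Apex1 (chr14:50924925-50924954, plus strand): CACGTGggggcggagccctcgaatCACGTG
Utp20 (chr10:88826765-88826794, minus strand): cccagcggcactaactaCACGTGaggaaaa
Wdr43 (chr17:71616220-71616249, plus strand): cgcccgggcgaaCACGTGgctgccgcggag
The Apex1 stretch holds the letters at both of its ends, and its whole window holds 3 copies. A match is a description of the letters in the window and not evidence of binding. The 10 genes with the letters had a median log2 difference, Blnk minus pMIG, of -0.13, and 9 of the 10 values were below 0. The 23 measured members whose window lacks the letters had a median of -0.08, with 13 values below 0. Over all measured genes the medians were -0.0010 with the letters and 0.0000 without. Of all genes, with or without a window, 49.6% had a value below 0. No difference between members with and without the letters was tested.

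Between the groups the 40 genes differed little. At a limma adjusted p under 0.05, 0 of 40 members were called in either direction, against 3.61% of all genes (2.51% called higher and 1.1% called lower). At an unadjusted p under 0.05 there were 7 (17.5%), against 15.2% of all genes: Odc1 on the higher side, where 8.91% of all genes stood, and Mycn, Tfap4, Nop56, Nop14, Wdr12 and Slc19a1 on the lower side (15%), where 6.32% of all genes stood. With quantile normalization repeated 14 of 40 members (35%) stood on the lower side, against 9.9% of all genes, and with arrays centred on their medians 10 of 40 (25%), against 8.89%. All members lay at percentile 71.4 of gene signal or above, so all genes are a dimmer background. With dim genes left out, 2 of 40 members were called, against 1228 of the 11963 genes kept. In that fit 8 members (20%) were lower without adjustment, against 9.48%, and 1 (2.5%) was higher, against 14.2%. In 8 members, or 20%, the 3 Blnk values and the 3 pMIG values did not overlap, the same share as the 20% of all genes. Only Odc1 was separate on the higher side, against 11.8% of all genes. On the lower side 7 were separate (17.5%), namely those 6 genes and Tfrc, against 8.15% of all genes. The log2 difference was below 0 in 27 of 40 members (67.5%) and in 49.6% of all genes. The median over the members was -0.08, with a range of -0.26 to 0.32, and the median over all genes was 0.0000.

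The intervals of the members rest on the spread between these arrays, which may be purely technical. The standard error of a member's log2 difference was 0.0636 to 0.129. The 95% interval excluded a 1.5-fold difference in either direction for all 40 members. A fall of the size estimated for Myc, -0.44 on the log2 scale, was outside the interval of 39 members, with Slc19a1 (-0.44 to -0.08) as the exception. The interval of Myc itself ran from -0.60 to -0.27, and no difference between Myc and a member was tested. The member interval held 0 for 33 members. These intervals are not adjusted for the number of genes. If the samples of a group are not separate cultures or animals, the intervals cannot bound a difference between cultures or animals.

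**Figure D1:**
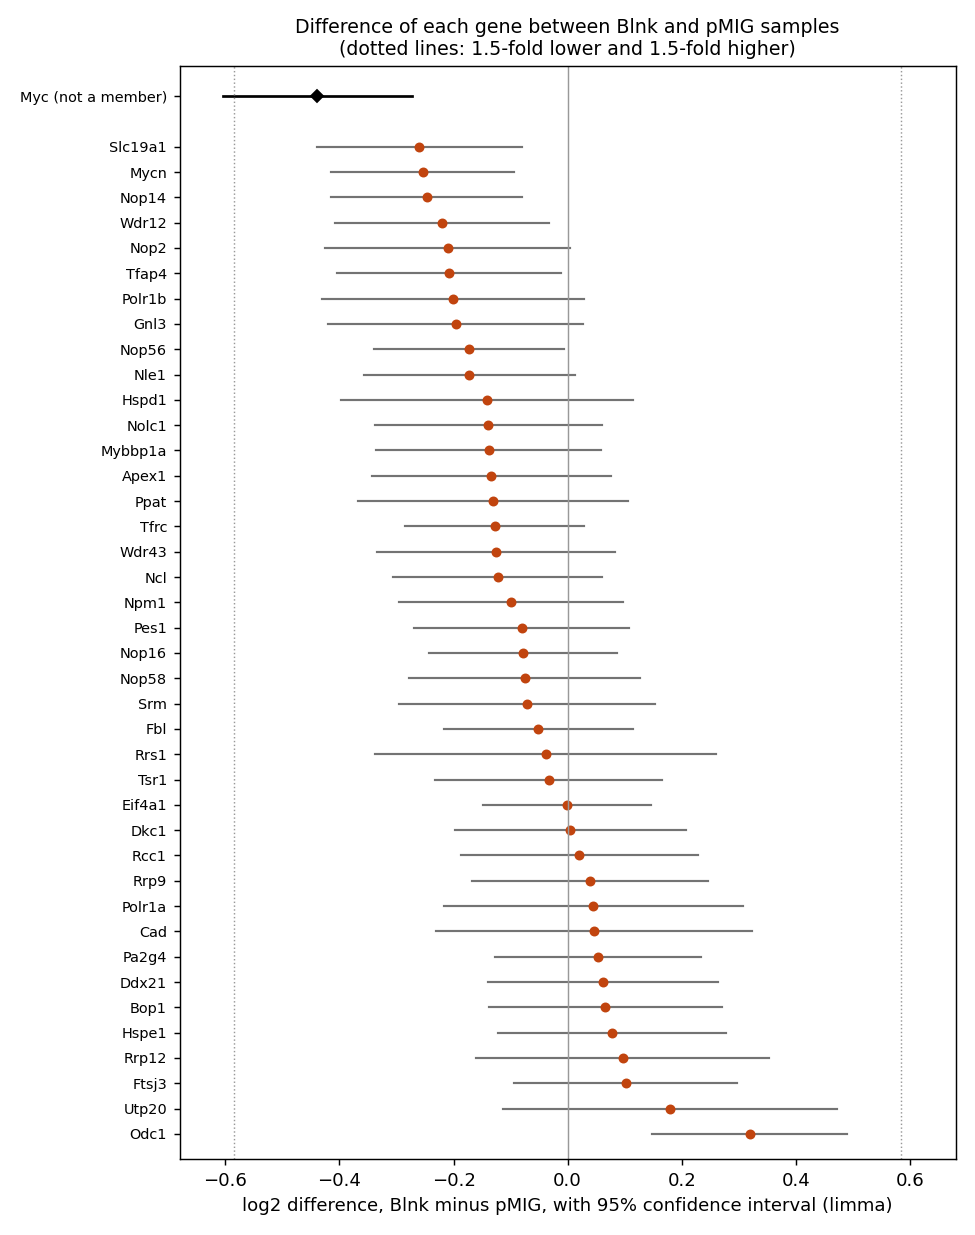
Log2 difference of each of the 40 measured genes, Blnk minus pMIG, with its 95% interval from limma (n = 3 each), in order of the difference. Myc, which is not a member, is drawn above them. The member values run from -0.26 for Slc19a1 to 0.32 for Odc1. Of the 40 member intervals 33 include 0, and all 40 lie within a 1.5-fold difference.

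The transcription factors of the list are Mycn, the MYC paralogue that can take the place of MYC, and Tfap4, a MYC-induced E-box binding factor called AP4. Mycn had intensities of 768, 848 and 831 in Blnk samples, against 981, 981 and 954 in pMIG samples. Every Blnk value was below every pMIG value, and the log2 difference was -0.25 (SE 0.0693, limma adjusted p = 0.112), with the threshold passed in 3 of 14 alternative analyses. Tfap4 had 436, 382 and 383 in Blnk samples, against 496, 445 and 445 in pMIG samples. The highest Blnk value lay just under the lowest pMIG values, with a log2 difference of -0.21 (SE 0.0848, limma adjusted p = 0.301).

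RNA polymerase I copies the ribosomal RNA genes. Polr1b, its second largest subunit, had intensities of 396, 383 and 320 in Blnk samples, against 392, 441 and 427 in pMIG samples, a log2 difference of -0.20 (SE 0.0989, limma adjusted p = 0.402). The groups overlapped, since 1 Blnk value stood above the lowest pMIG value. Polr1a, the largest subunit, differed by 0.05 and Mybbp1a, a nucleolar MYB-binding protein that acts on ribosomal RNA synthesis, by -0.14, and in both the groups overlapped.

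Of the 5 genes of small nucleolar particles, Nop56 had the largest difference. Its product is a core protein of the particles that carry fibrillarin. Intensities were 2427, 2490 and 2255 in Blnk samples, against 2654, 2624 and 2803 in pMIG samples. All Blnk values were lower than all pMIG values, with a log2 difference of -0.17 (SE 0.0716, limma adjusted p = 0.307). Its partner Nop58 differed by -0.08, and Fbl, which is fibrillarin, the methyltransferase of these particles, by -0.05. A further Fbl probe differed by -0.13, also with overlapping groups. Nolc1, a nucleolar chaperone of such particles, differed by -0.14, and Dkc1, the pseudouridine synthase dyskerin, by 0.0049. In these 4 genes the groups overlapped, with limma adjusted p-values of 0.523 or more.

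The 6 genes of the small subunit pathway went both ways in value, with 3 below 0 and a median of 0.0032. Nop14, a factor of small subunit processing, had 661, 618 and 588 in Blnk samples, against 720, 753 and 741 in pMIG samples. Its groups did not overlap, Blnk being the lower, and the log2 difference was -0.25 (SE 0.0718, limma adjusted p = 0.136). Utp20, a large scaffold protein of the early small subunit precursor, had 519, 451 and 375 in Blnk samples, against 363, 430 and 387 in pMIG samples. The positive log2 difference of 0.18 (SE 0.126) came with overlapping groups and a Blnk spread of 375 to 519 (limma adjusted p = 0.582). Rrp12, an export factor, differed by 0.10, Rrp9, a particle protein, by 0.04, Tsr1, a late maturation factor, by -0.03 and Wdr43 by -0.13.

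Among the factors of the large subunit, 6 of 8 measured members were below 0, with a median of -0.08. Wdr12 forms a complex with Pes1 and Bop1 that is needed to process large subunit RNA. Wdr12 had intensities of 796, 744 and 676 in Blnk samples, against 864, 829 and 883 in pMIG samples, which do not overlap, with Blnk below (log2 difference -0.22, SE 0.0807, limma adjusted p = 0.244). A further Wdr12 probe had overlapping groups, with 415, 377 and 329 in Blnk samples, against 408, 442 and 435 in pMIG samples. The other members of the same complex did not share that separation. Pes1 differed by -0.08 and Bop1 by 0.07, each with overlapping groups.

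Nop2, an RNA cytosine methyltransferase, had 420, 373 and 345 in Blnk samples, against 437, 465 and 412 in pMIG samples. The highest Blnk value exceeded the lowest pMIG value, and the log2 difference was -0.21 (SE 0.0926, limma adjusted p = 0.339). Nle1, which takes part in large subunit maturation, had 432, 373 and 387 in Blnk samples, against 451, 462 and 428 in pMIG samples, and these overlapped in 1 array of each group (log2 difference -0.17, SE 0.0798, limma adjusted p = 0.371). Nop16 differed by -0.08, Rrs1 by -0.04 and Ftsj3 by 0.10. Ppan, read only through a probe shared with B130055M24Rik, had 720, 702 and 593 in Blnk samples, against 802, 782 and 796 in pMIG samples. The Blnk values were all lower, but the reads of both symbols cannot be told apart and this probe entered no test.

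The abundant nucleolar proteins showed small differences. Ncl is nucleolin, which binds ribosomal RNA, and it had intensities of 3279, 3058 and 2889 in Blnk samples, against 3171, 3535 and 3336 in pMIG samples. Npm1, or nucleophosmin, a histone and ribosome chaperone, had 3478, 3259 and 3244 in Blnk samples, against 3271, 3908 and 3536 in pMIG samples. In both genes the groups overlapped, with log2 differences of -0.12 for Ncl and -0.10 for Npm1 (SE 0.0790 and 0.0844, limma adjusted p = 0.542 and 0.665). Gnl3, nucleostemin, a GTP-binding protein of the nucleolus, had 1676, 1455 and 1328 in Blnk samples, against 1618, 1711 and 1760 in pMIG samples. A single Blnk array stood above the lowest pMIG array, and the log2 difference was -0.20 (SE 0.0966, limma adjusted p = 0.403). Ddx21, an RNA helicase of ribosomal RNA synthesis and processing, differed by 0.06.

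The genes that supply growing cells held both ends of the range. Odc1, ornithine decarboxylase, the first and rate-limiting step of polyamine synthesis, had intensities of 1766, 1592 and 1583 in Blnk samples, against 1282, 1358 and 1317 in pMIG samples. All Blnk values lay above all pMIG values. The means were 1647 ± 103 in Blnk samples and 1319 ± 38.0 in pMIG samples (SD, n = 3 each), 24.7% higher with Blnk (log2 difference 0.32, SE 0.0734, limma adjusted p = 0.0638). Odc1 passed the threshold in 4 of 14 alternative analyses. The next enzyme of the route, spermidine synthase (Srm), differed by -0.07 with overlapping groups.

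Slc19a1, the reduced folate carrier, stood at the other end. It had 658, 596 and 597 in Blnk samples, against 787, 714 and 715 in pMIG samples, with no overlap and Blnk below (log2 difference -0.26, SE 0.0774, limma adjusted p = 0.146). A further Slc19a1 probe also had separate groups, with 233, 267 and 222 in Blnk samples, against 292, 274 and 295 in pMIG samples. Tfrc, the transferrin receptor that brings in iron, had 3771, 3474 and 3479 in Blnk samples, against 3894, 3930 and 3887 in pMIG samples. Its Blnk values were all below its pMIG values, by a small step (log2 difference -0.13, SE 0.0673, limma adjusted p = 0.437). Cad, which starts pyrimidine synthesis, differed by 0.05 and Ppat, which starts purine synthesis, by -0.13, with overlapping groups in each.

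The remaining members act in translation, protein folding and the nucleus. Eif4a1, the helicase of the cap-binding complex, had intensities of 7164, 6833 and 6829 in Blnk samples, against 6931, 7038 and 6872 in pMIG samples. The groups could hardly be closer, with means of 6942 ± 192 in Blnk samples and 6947 ± 84.1 in pMIG samples (SD, n = 3 each) and a log2 difference of -0.0013 (SE 0.0636). The mitochondrial chaperonin pair did not go the same way in value. Hspe1 had 4701, 4153 and 3862 in Blnk samples, against 3936, 4018 and 4056 in pMIG samples, and differed by 0.08 on the log2 scale (SE 0.0858, limma adjusted p = 0.752). Its partner Hspd1 had 2971, 2341 and 2240 in Blnk samples, against 2691, 2776 and 2798 in pMIG samples, and differed by -0.14 (SE 0.110, limma adjusted p = 0.630). In Hspd1 a single Blnk array stood above every pMIG array, and in Hspe1 the pMIG values lay among the Blnk values. Pa2g4, a growth-regulated nucleolar protein, differed by 0.05, Rcc1, the exchange factor of the GTPase Ran, by 0.02 and Apex1, a DNA repair endonuclease, by -0.13. Probes of genes with near-identical copies elsewhere in the genome, such as Npm1, Eif4a1, Hspd1, Hspe1 and Odc1, may also read those copies.

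Array by array, the Blnk samples did not behave alike for these genes. Against the mean of the pMIG arrays, the member median was 0.04 in Blnk replicate 1, -0.11 in Blnk replicate 2 and -0.16 in Blnk replicate 3, and it was -0.01, 0.03 and -0.02 in pMIG replicates 1, 2 and 3. In Blnk replicate 1, 15 of 40 members were below the pMIG mean, against 30 in Blnk replicate 2 and 38 in Blnk replicate 3. Blnk replicate 1 was the highest of the 3 Blnk arrays for 38 of the 40 members (95%), which was the case for 33.6% of all genes. The exceptions were Mycn and Nop56, in which Blnk replicate 2 was the highest. Blnk replicate 3 was the lowest for 29 members (72.5%), against 25.5% of all genes. The count of 38 was the same with quantile normalization repeated and with arrays centred on their medians.

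**Figure D2:**
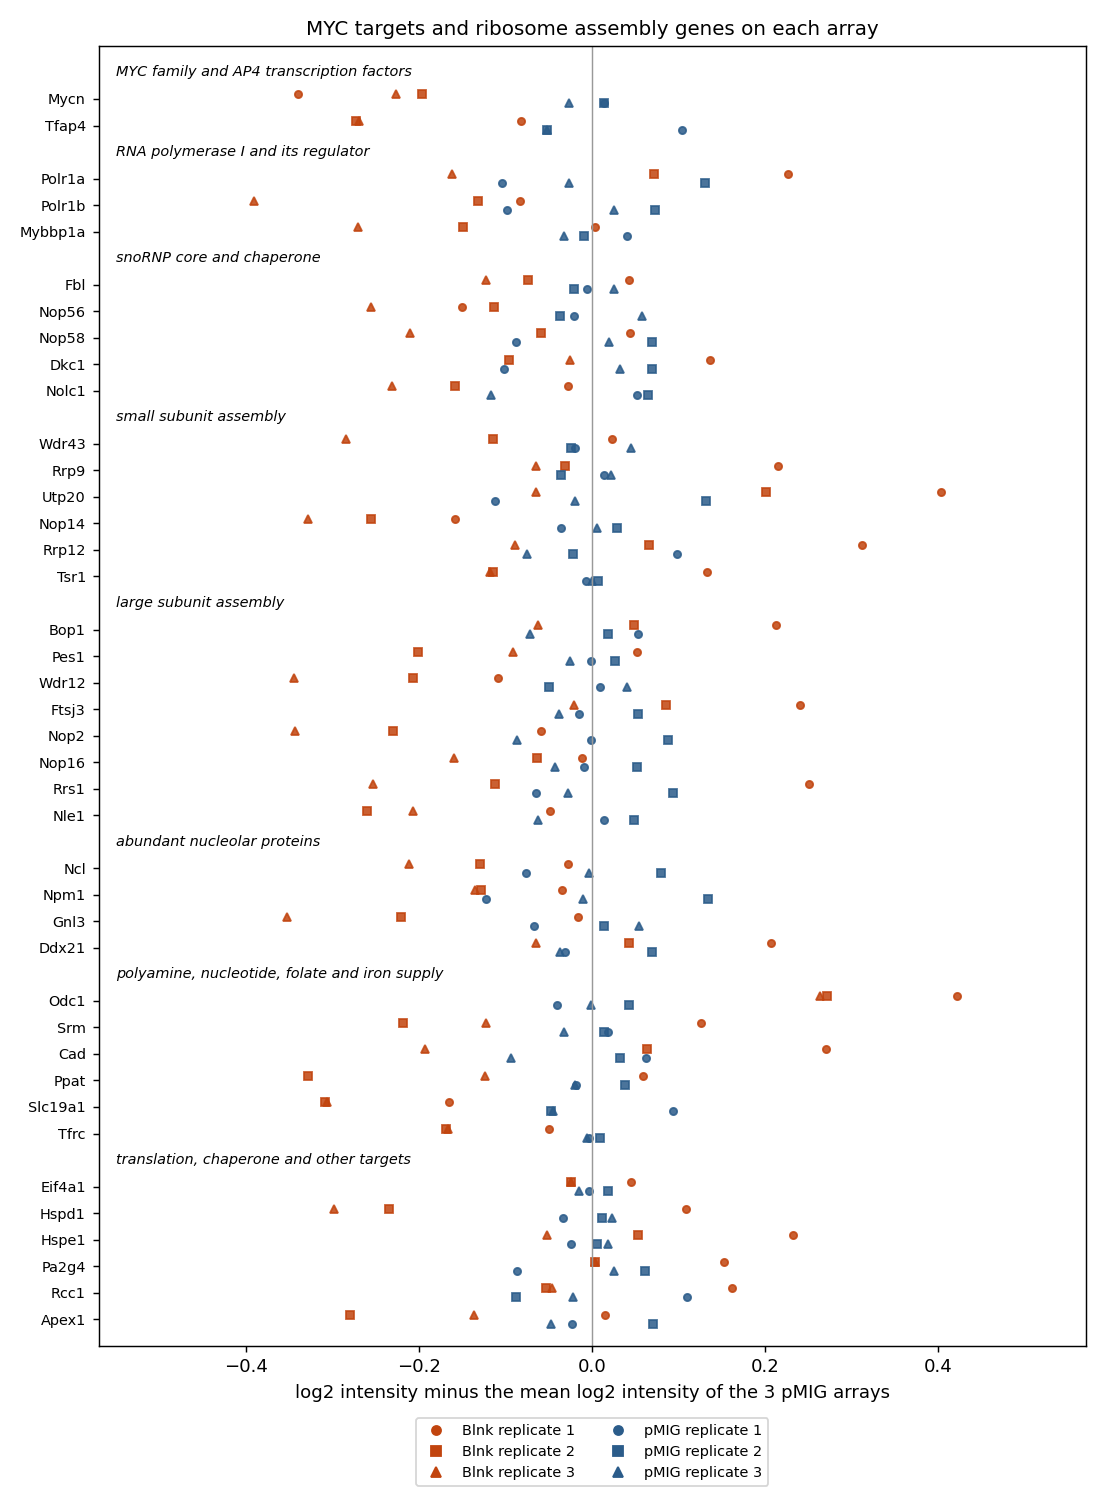
Log2 intensity of each of the 40 measured genes on each of the 6 arrays, minus that gene's mean over the pMIG arrays (horizontal axis). Each gene has the 3 Blnk arrays in orange above the 3 pMIG arrays in blue, with 1 marker shape per replicate. Blnk replicate 1 holds 15 members below the pMIG mean, Blnk replicate 2 holds 30 and Blnk replicate 3 holds 38.

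The 9 pairs of 1 Blnk and 1 pMIG array divided in the same way. Blnk replicate 1 had member medians of 0.05, 0.03 and 0.07 against pMIG replicates 1, 2 and 3. Blnk replicate 2 had -0.08, -0.15 and -0.12, and Blnk replicate 3 had -0.15, -0.21 and -0.12. The same pairs gave medians of -0.04 to 0.03 over all genes. Without Blnk replicate 1, still 0 members passed, but the median was -0.16, 35 of 40 members were below 0, and 16 were lower at an unadjusted p under 0.05 (40%, against 6.41% of all genes in that fit). Without Blnk replicate 2 the median was -0.05, and without Blnk replicate 3 it was -0.05. Median intensities were 69, 70 and 69 in Blnk samples and 69, 67 and 67 in pMIG samples, and upper quartiles were 329, 329 and 322 in Blnk samples and 310, 325 and 320 in pMIG samples. RMA brings such array summaries close to each other. The Blnk transcript read 2714, 3342 and 3022 in Blnk replicates 1, 2 and 3, while the member median was lowest in Blnk replicate 3. The part of the Blnk level in the array pattern was not tested.

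The MYC network was compared beside its targets. Myc fell: its intensities were 3430, 3243 and 3046 in Blnk samples, against 4369, 4319 and 4470 in pMIG samples. The means of 3239.7 ± 192 in Blnk samples and 4386 ± 76.9 in pMIG samples (SD, n = 3 each) differ by -0.44 on the log2 scale (SE 0.0714, limma adjusted p = 0.0161). Myc passed the threshold in 8 of 14 alternative analyses, and leaving out 1 array at a time gave adjusted p-values of 0.0307 to 0.0914. It was above 0.05 without any 1 array other than Blnk replicate 1.

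Of the 12 network genes measured, Myc alone passed, where 3.61% of all genes did. Without adjustment 2 were higher and 2 lower (16.7% each), against 8.91% and 6.32% of all genes. The groups were separate in 2 on the higher side and 3 on the lower side, against 11.8% and 8.15% of all genes. Max, the obligate partner of MYC, had 1327, 1216 and 1301 in Blnk samples, against 1111, 1149 and 1130 in pMIG samples, with Blnk above throughout (log2 difference 0.18, SE 0.0677, limma adjusted p = 0.255). Mlx, which pairs with MondoA and with some MXD proteins, had 584, 506 and 556 in Blnk samples, against 434, 461 and 456 in pMIG samples, again separate and higher (log2 difference 0.28, SE 0.0775, limma adjusted p = 0.114). Mxi1, a MAX partner that represses MYC targets, had 299, 243 and 288 in Blnk samples, against 338, 322 and 344 in pMIG samples, separate and lower (log2 difference -0.28, SE 0.0924, limma adjusted p = 0.190). The other repressive partners Mxd1, Mxd3, Mxd4 and Mnt differed by -0.10, 0.11, -0.08 and -0.12, and Mga, another MAX partner, by -0.04. Mlxip, which encodes MondoA, differed by -0.06 and Zbtb17, the MYC-binding factor MIZ1, by -0.11. Mycl was dim, with 50, 48 and 57 in Blnk samples, against 47, 48 and 55 in pMIG samples.

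**Figure D3:**
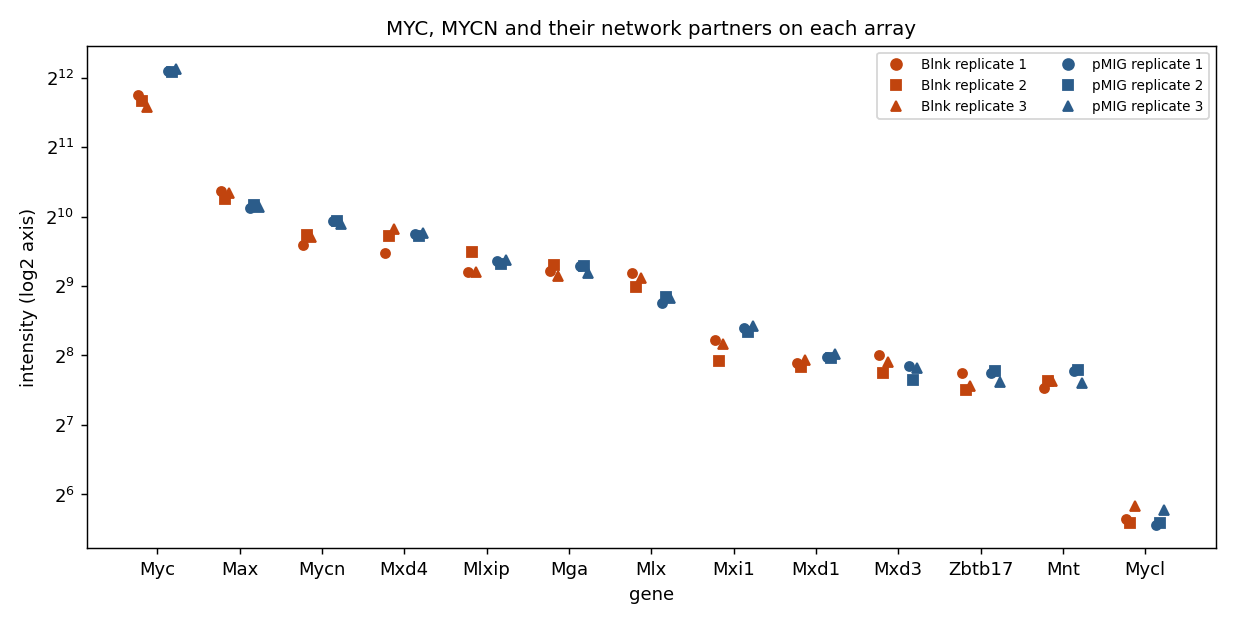
Intensity on a log axis of the MYC network genes and of Mycn on each array, with Blnk samples left of pMIG samples for each gene and 1 point per array. Myc is lower in all 3 Blnk samples (3046 to 3430, against 4319 to 4470 in pMIG samples), and levels of different probes are not comparable with each other.

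Wider lists of the same processes were read from the same fit. Of 87 other ribosome assembly genes, 0 passed, against 3.61% of all genes. At an unadjusted p under 0.05 there were 4 on the higher side (4.6%) and 5 on the lower side (5.75%). Of all genes, 8.91% and 6.32% stood there. Their median was 0.03, or -0.01 with quantile normalization repeated and -0.01 with arrays centred on their medians. The median over all genes was 0.0000, -0.0329 and -0.0352 in the same fits. The sign of the list median thus depends on the scaling, while it stayed above the all-gene median in these fits. Without Blnk replicate 1 it was -0.03, against -0.0009 over all genes. Nob1, an endonuclease of late small subunit maturation, had the smallest adjusted p, with 643, 604 and 635 in Blnk samples, against 764, 739 and 740 in pMIG samples (log2 difference -0.25, limma adjusted p = 0.0930). Nol6, another small subunit factor, had 612, 566 and 503 in Blnk samples, against 445, 484 and 440 in pMIG samples (log2 difference 0.29, limma adjusted p = 0.161). The array pattern was shared: Blnk replicate 1 was the highest Blnk array for 80 of these 87 genes (92%), for 72 with quantile normalization repeated and for 83 with centred arrays.

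Of 25 other genes of RNA polymerases I and III, 0 passed and 16 (64%) were below 0 (median -0.06), against 49.6% of all genes. Without adjustment 1 was higher (4%) and 2 were lower (8%), against 8.91% and 6.32% of all genes. Taf1d, a subunit of the polymerase I selectivity factor, had 7607, 8265 and 7895 in Blnk samples, against 10018, 9463 and 9826 in pMIG samples, separate and lower (log2 difference -0.30, limma adjusted p = 0.0597). Taf1d has 9 probes, and their mean gave a log2 difference of -0.14 (limma adjusted p = 0.692). It passed the threshold in 5 of 14 alternative analyses. Polr1e, a polymerase I subunit, differed by 0.26 (limma adjusted p = 0.149). The cytosolic ribosomal proteins, which are the product side of the pathway, differed little. Of 82 listed, 56 were measured, because 18 had only probes shared with other symbols and 8 were not in the annotation. Of the 56, 0 passed, against 3.61% of all genes, and 1 (1.79%) was higher without adjustment, against 8.91%. The median was 0.02, or -0.01 with quantile normalization and -0.02 with centring, where all genes had medians of -0.0329 and -0.0352. Their medians in Blnk replicates 1, 2 and 3 were 0.02, 0.02 and 0.02 relative to the pMIG mean. Rps3a1 differed by 0.24 (limma adjusted p = 0.128) and Rps19 by -0.12 (limma adjusted p = 0.498).

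Of 22 genes of nucleotide synthesis, 1 passed, where 3.61% of all genes did, and 20 (90.9%) were below 0, against 49.6% of all genes. Their median was -0.07. The median was -0.17 without Blnk replicate 1 and -0.02 without Blnk replicate 2, where 15 were below 0. In Blnk replicate 1, 15 of the 22 stood above the pMIG mean. Impdh1, an enzyme that commits purines to guanine nucleotides, fell by 42.3%, with 249, 220 and 224 in Blnk samples, against 369, 427 and 406 in pMIG samples (log2 difference -0.79, SE 0.0855, limma adjusted p = 0.00238). It passed in 14 of 14 alternatives. Of 18 tRNA synthetases, 0 passed and 15 (83.3%) were below 0 (median -0.13), against 49.6% of all genes. At an unadjusted p under 0.05, 4 were lower (22.2%), where 6.32% of all genes stood. That count was 10 with quantile normalization repeated, 9 without Blnk replicate 1, 3 without pMIG replicate 1 and 1 without any other single array. Lars, for leucine, differed by -0.29 (limma adjusted p = 0.136) and Gars, for glycine, by -0.17 (limma adjusted p = 0.252). Of 31 translation factors, 0 passed, and 1 was higher and 1 lower without adjustment (3.23% each, against 8.91% and 6.32% of all genes). The median was 0.02, or -0.01 with quantile normalization and -0.01 with centring, where all genes had medians of -0.0329 and -0.0352. Eif2b2 differed by 0.27 (limma adjusted p = 0.0796) and Eif4ebp1, a repressor of cap-dependent translation, by -0.20 (limma adjusted p = 0.224).

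**Figure D4:**
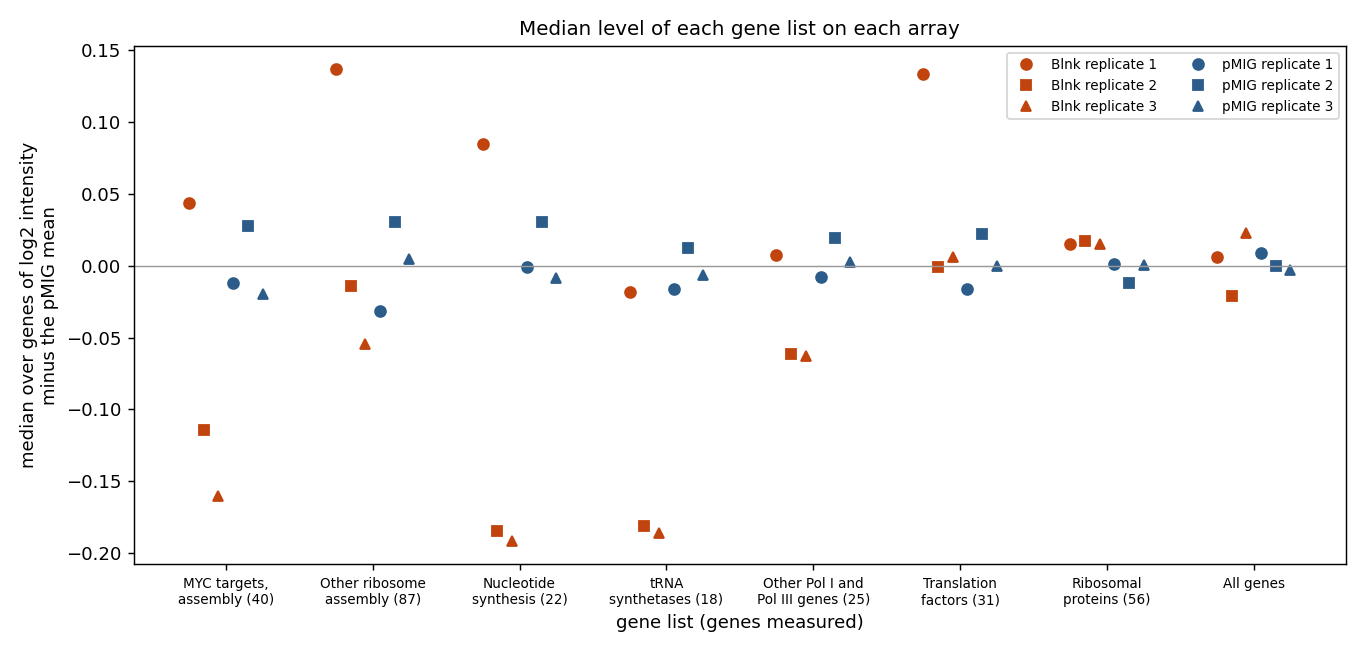
Median log2 intensity of each gene list on each array, relative to the mean of the pMIG arrays, with Blnk replicates left of pMIG replicates. The members run from 0.04 in Blnk replicate 1 to -0.16 in Blnk replicate 3 and the other ribosome assembly genes from 0.14 to -0.05, while the ribosomal proteins stay at 0.02 on all 3 Blnk arrays.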

How the data were processed

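Total RNA of 6 samples was hybridised to 1 Affymetrix array each. Per the submitters' processing notes, RMA was used; no version is stated there. The deposited values are linear intensities in whole numbers from 3 to 22187, which look like RMA values returned from log2 and rounded. Log2 was taken with nothing added. Of 35421 probes, 21789 carried 1 gene symbol, 1621 several and 12011 were not listed in the platform annotation. The brightest single-gene probe by mean log2 stood for each gene, leaving 19938 genes. A rounded step is large for dim probes, but the lowest of the 40 members lay at percentile 71.4 of gene signal.

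Blnk and pMIG samples were compared with limma 3.58.1 (lmFit, then eBayes; R 4.3.3), group only, two-sided, with Benjamini-Hochberg adjustment over all genes and a threshold of 0.05. Fold changes are Blnk minus pMIG on the log2 scale. Lists have counts and medians and no test. The number of arrays limits the precision.

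The members and lists were chosen with earlier results of these data known. Every member was named, with all array values for the 12 of largest absolute difference and the 6 of highest signal. MYC network genes were named whatever their values, as were members past the threshold of the other lists or else the 2 with the smallest adjusted p. Symbols were matched directly and, where a symbol was absent, through Entrez identifiers. Alternatives were a replicate block, repeated quantile normalization, centring, a filter at the 40th percentile, an offset of 16, the mean of all probes, a trended robust prior, array weights and leaving out each array. Same-numbered arrays did not deviate together.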

Additional observations from a re-analysis of the deposited data

Results flagged for a closer look

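Odc1 has a further probe that entered only the alternative with the mean of all probes, and it gave a difference in the same direction. It read 1591, 1462 and 1429 in Blnk samples, against 1109, 1360 and 1208 in pMIG samples, a log2 difference of 0.29 with all Blnk values above all pMIG values. The probe used for Odc1 gave 0.32. Neither value was tested further. Only further probes with every Blnk value above every pMIG value were flagged here. The further Slc19a1 probe, separate on the lower side, is given above.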

How the results depend on the processing

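The count of members past the threshold was 0, and it was 0 with a replicate block, quantile normalization repeated, centred arrays, the mean of all probes and without any 1 array. It was 2 with dim genes left out (Odc1 and Mycn), 2 with an offset of 16 (Odc1 and Mycn), 4 with a trended robust prior (with Nop14 and Slc19a1) and 1 with array weights (Odc1). The count over all 19938 genes was 720, against 289 with a replicate block, 1100 with the offset and 1539 with the trended prior. It was 893 with array weights and 267 to 437 without 1 array. With dim genes left out it was 1228 of the 11963 genes kept, among them all 40 members. In the wider lists the trended prior called 2 of 87 other ribosome assembly genes, 3 of 18 tRNA synthetases and 3 of 25 polymerase I and III genes. It also called 1 of 56 ribosomal proteins, 1 of 31 translation factors and 4 of 22 genes of nucleotide synthesis. The cause of these shifts was not tested, apart from the fewer genes or arrays some of them use. Myc had an adjusted p of 0.0975 with the replicate block, and its range over all alternatives was 1.41e-05 to 0.0975. The labels do not say whether the replicate numbers mark a pairing. Correlations of same-numbered deviations were -0.19, 0.06 and -0.12, which cannot settle it with 3 arrays a group. The member median stayed below 0, from -0.16 to -0.05. Of 40 members, 27 kept their sign under all 14 alternatives, 23 of them below 0, and none was called on both sides. Odc1 ranged in adjusted p from 0.00178 to 0.219. Limits are 3 arrays a group, replicates of unstated origin, rounded intensities and probes that may read copies of a gene.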
